A study of Mus musculus with 12 samples.

Results

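Prostaglandins are short-lived lipid signals, and this report follows the genes that make, move, break down and sense them in the mouse endometrium 8 h after mating. Of 10 genes set out by name, 9 were measured: Pla2g4a, Ptgs2, Ptges, Ptgis, Slco2a1, Hpgd, Ptger2, Ptger4 and Ptgfr. Ptgs1, which encodes the constitutive cyclooxygenase, was not analysed here. A gene entered when a transcript cluster of the array carried its symbol and no other, and each of the 9 genes had 1 such cluster among 21789 with a single symbol and 35556 in all.

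Endometrial RNA of CBAF1 females, the F1 offspring of CBA and C57Bl/6 mice, was measured on 12 microarrays (Affymetrix Mouse Gene 1.0 ST), 4 in each of 3 groups. All males were BALB/c. Intact-mated females had mated with intact males and vasectomized-mated females with males that had been vasectomized, in both cases 8 h before the tissue was taken, and control females were unmated virgins. Females were 9 to 16 weeks old and males 12 to 28 weeks old. Each array held 300 ng of RNA pooled from 4 of the 16 females of its group, so the spread between arrays is a spread between pools. The ejaculate of a vasectomized male lacks sperm and also the fluid of testis and epididymis, and these cannot be told apart. Controls are labelled as estrus, whereas the methods have them collected in pro-estrus at 2000 h, so mating, hour and cycle stage cannot be told apart in any comparison with controls. Both mated groups were set against the same 4 control arrays. The tissue was the endometrial layer scraped from the opened uterus, a mix of cell types in which fewer cells of a type and less RNA per cell cannot be told apart. Levels are log2 values, on which a difference of 1 is a doubling, and a level of one gene was not set against that of another.

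Prostaglandin synthesis starts when a phospholipase A2 frees arachidonic acid from membranes. A cyclooxygenase turns the acid into an unstable intermediate, from which terminal synthases make the individual prostaglandins. They leave the cell, act on G protein-coupled receptors nearby, and are carried back into cells by a transporter and oxidised to inactive products. In the mouse uterus the pathway is known for its roles in implantation, in the decidual response and in labour.

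The promoters of the 3 genes that were called in the comparisons between groups are shown first. Each window runs from 250 bases before the RefSeq transcription start to 30 bases after it, 5′ to 3′ on the gene's strand, in build GRCm38.p6. The windows were read from RefSeq, which gave a window for 9 of the 10 genes named at the outset. Capitals mark matches, on either strand, to 5 motifs: the core of the cAMP response element (CGTCA), an E-box (CACGTG), a C/EBP site (TTGCNNAA), a TATA box (TATAAA) and a kappaB decamer. The Ptgs2 window is chr1:150099781-150100060 on the plus strand, the Slco2a1 window chr9:103008237-103008516 on the plus strand and the Ptger4 window chr15:5244158-5244437 on the minus strand.
Ptgs2: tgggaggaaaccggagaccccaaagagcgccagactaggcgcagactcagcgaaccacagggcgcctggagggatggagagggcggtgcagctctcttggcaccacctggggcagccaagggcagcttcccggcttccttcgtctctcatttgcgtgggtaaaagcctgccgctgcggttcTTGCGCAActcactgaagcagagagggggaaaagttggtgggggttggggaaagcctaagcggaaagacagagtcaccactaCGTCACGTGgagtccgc
Slco2a1: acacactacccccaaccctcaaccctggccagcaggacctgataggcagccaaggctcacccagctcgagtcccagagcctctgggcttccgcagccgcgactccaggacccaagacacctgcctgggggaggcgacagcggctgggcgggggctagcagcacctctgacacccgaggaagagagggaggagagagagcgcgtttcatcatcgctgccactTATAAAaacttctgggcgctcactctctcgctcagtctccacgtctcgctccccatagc
Ptger4: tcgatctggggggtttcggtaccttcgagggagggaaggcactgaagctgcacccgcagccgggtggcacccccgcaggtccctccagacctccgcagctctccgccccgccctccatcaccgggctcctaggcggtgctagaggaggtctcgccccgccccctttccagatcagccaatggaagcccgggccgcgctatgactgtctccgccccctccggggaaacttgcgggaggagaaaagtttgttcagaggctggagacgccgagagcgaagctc

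The Ptgs2 window held a C/EBP site that begins at position -69 relative to the start. It also held a cAMP element core beginning at base 14 counted from the RefSeq start. This core overlaps an E-box beginning at base 17, so that both appear as 1 run of capitals. Positions depend on that annotated start, and other starts of the gene were not examined. The Slco2a1 window held a TATA box that begins at position -29, and the Ptger4 window held a match to none of the 5 motifs. Of genes that were not called, Hpgd (base 5) and 1 window of Pla2g4a (position -200) also held a TATA box. The windows of Ptges, Ptger2 and Ptgfr, also not called, held a match to none of the 5. Among 32851 mouse promoter windows of the same 280 bases, the cAMP element core was found in 19.9%, the TATA box in 13.1%, the C/EBP site in 10.4%, the E-box in 6.79% and the kappaB decamer in 1.54%. A match is a description of letters and not of a bound site.

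Calls of a difference followed 2 thresholds together, 1.5-fold or more in either direction and a false discovery rate (the adjusted p of limma over all 35556 clusters) of 0.05 or less. In intact-mated females against controls, 3 of 9 genes were called, Ptgs2 and Slco2a1 higher and Ptger4 lower, where 1.95% of all clusters were called higher and 1.55% lower, 3.49% in all. In vasectomized-mated females against controls 1 of 9 was called, Ptgs2, which was higher, beside 0.987% of all clusters higher and 0.439% lower, 1.43% in all. In intact-mated against vasectomized-mated females 2 of 9 were called, Slco2a1 higher and Ptger4 lower, beside 0.394% of all clusters higher and 0.402% lower, 0.796% in all. With no fold threshold the counts were 3, 2 and 2 of 9, beside 10.1%, 4.07% and 2.34% of all clusters, and Ptger2 was the gene that this added, in vasectomized-mated females. The median log2 fold-change over the 9 genes was 0.217, 0.0728 and 0.0458 in these comparisons in the same order, against 0.00612, 0.00966 and -0.00177 over all clusters. The 4 arrays of one group lay wholly above or below the 4 of the other for 4 of 9 genes in intact-mated against control females, for 3 of 9 in vasectomized-mated against control females and for 4 of 9 in intact-mated against vasectomized-mated females. The shares of all clusters with such a gap were 14.2%, 10.7% and 14.0%.

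**Figure D1:**
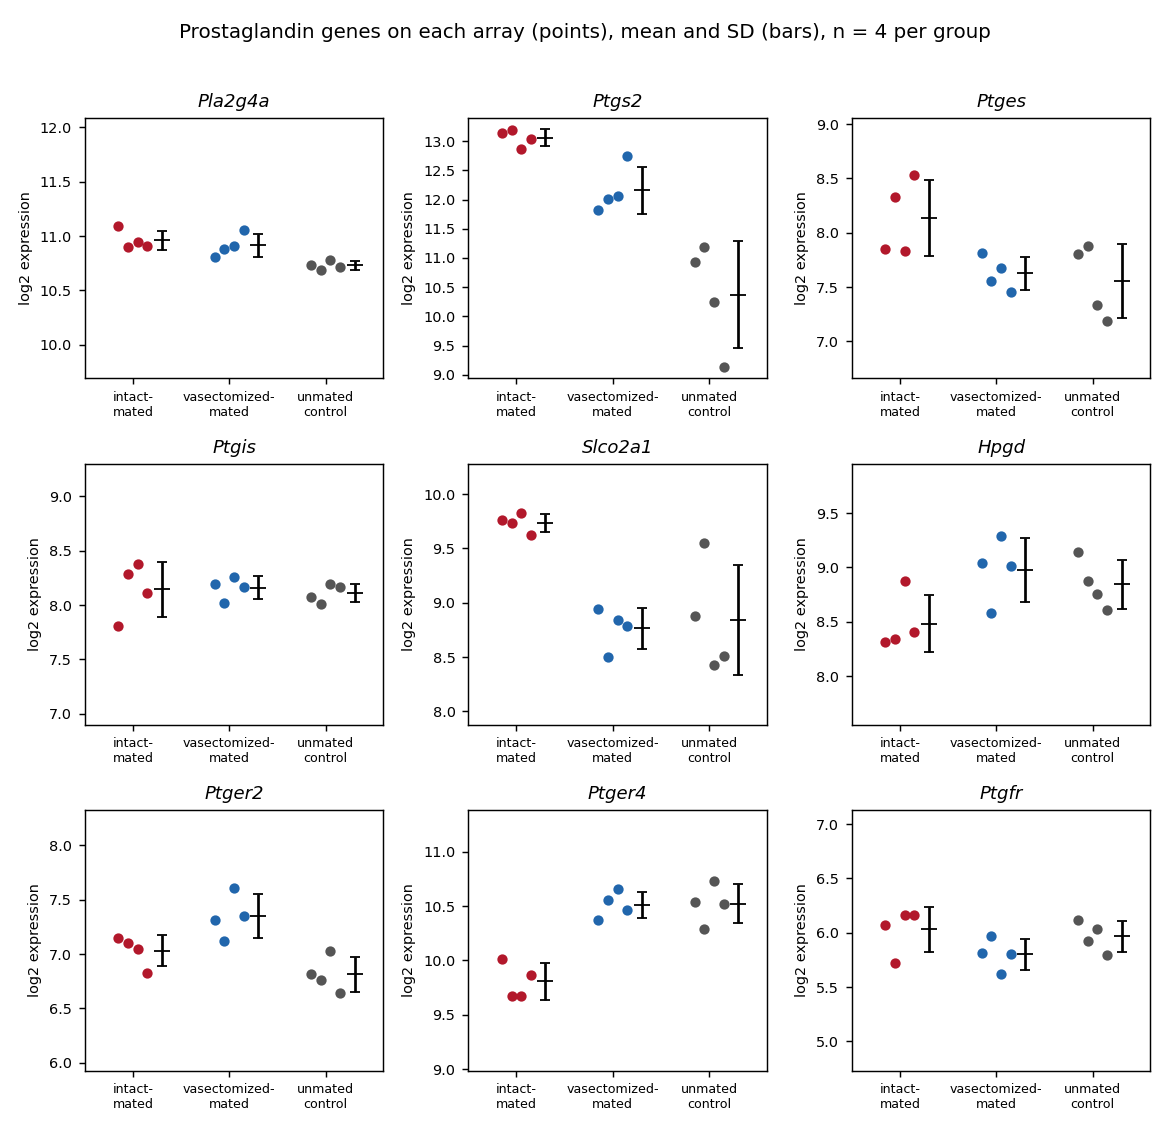
Log2 expression (y axis) of the 9 prostaglandin genes on each array, with intact-mated, vasectomized-mated and control females from left to right on the x axis. Points are arrays, and bars are the mean and SD of 4. Ptgs2 lay higher on all mated arrays than on all control arrays, Slco2a1 was highest on the 4 intact arrays and Ptger4 lowest on the 4 intact arrays.

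Pla2g4a encodes the cytosolic phospholipase A2 that releases arachidonic acid, and mice without it are known to implant late. Its log2 level was 11.09, 10.90, 10.94 and 10.91 on the intact arrays, 10.81, 10.89, 10.91 and 11.06 on the vasectomized arrays and 10.74, 10.69, 10.78 and 10.72 on the control arrays. Every mated array lay above every control array, and the mated groups overlapped each other. The log2 fold-change was 0.23 ± 0.068 (SE, n = 4 arrays a group) in intact-mated females against controls (adjusted p = 0.0522, limma) and 0.18 in vasectomized-mated females against controls (adjusted p = 0.167, limma). Neither met the thresholds, and the difference between the mated groups was 0.05 (95% interval -0.10 to 0.19).

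Ptgs2, the inducible cyclooxygenase, is the rate-limiting enzyme of the pathway in many inflamed tissues and is needed for implantation in mice. It was the gene of the 9 with the largest fold-change over controls in both mated groups. Its log2 level was 13.13, 13.19, 12.87 and 13.04 on the intact arrays, 11.83, 12.002, 12.05 and 12.74 on the vasectomized arrays, and 10.92, 11.19, 10.24 and 9.14 on the control arrays. The 3 groups did not overlap: each intact array was above each vasectomized array, and each of these was above each control array. The control arrays spread over more than 2 log2 units (SD 0.914), the vasectomized arrays less (SD 0.403) and the intact arrays least (SD 0.142).

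Ptgs2 rose 6.43-fold in intact-mated females against controls, a log2 fold-change of 2.69 ± 0.356 (SE, n = 4 arrays a group, 95% interval 1.91 to 3.46, adjusted p = 0.000448, limma). Against the same controls it rose 3.44-fold in vasectomized-mated females, a log2 fold-change of 1.78 ± 0.356 (95% interval 1.01 to 2.56, adjusted p = 0.0157, limma). This second call was lost when vasectomized array 4, the highest of its group, was left out (log2 fold-change 1.59, adjusted p = 0.051, limma). Intact-mated females exceeded vasectomized-mated females by 0.90 (95% interval 0.13 to 1.68), a fold-change of 1.87 that did not pass the correction (adjusted p = 0.213, limma). The fit of only these 2 groups called it (adjusted p = 0.029, limma), as did the fit without controls 3 and 4 (adjusted p = 0.0241, limma), and no fit with a single array left out did (adjusted p = 0.0575 to 0.38, limma). The main fit took 1 spread from all 3 groups, so the control arrays (SD 0.914) entered the SE of this difference too.

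Markers of other cells moved in part with these arrays. Of 13 measured neutrophil markers, 4 were called higher in intact-mated females against controls, the same 4 in intact-mated against vasectomized-mated females (Cxcr2, S100a9, Csf3r and Clec4d), and 0 in vasectomized-mated females against controls. The list did not move as one: Ly6g, a surface marker of mouse neutrophils, had log2 differences of -0.44 in intact-mated females against controls and -0.27 against vasectomized-mated females, where all intact arrays lay below all vasectomized arrays, and neither was called. The control arrays of Ly6g were uneven, at 9.60, 9.32, 10.48 and 10.665 on controls 1 to 4. In the comparison of the mated groups, Mmp8 (-0.05) and Itgam (-0.03) were also below 0. The mean log2 level over the 13 was 7.53 to 7.88 on intact arrays, 7.24 to 7.38 on vasectomized arrays and 7.10 to 7.20 on control arrays. In vasectomized-mated females against controls, where Ptgs2 was called, 10 of the 13 markers had a positive log2 fold-change and their median was 0.154. In intact-mated females against controls 12 of the 13 were positive and their median was 0.357. The part of neutrophils in Ptgs2 was not tested in either mated group. Of 7 measured mast cell markers 1 was called in intact-mated females against controls (Hdc, higher), where only 2 of the 7 had a positive log2 fold-change and their median was -0.0122, and of 9 macrophage markers 0 were called in any comparison. None of 8 epithelial markers was called in any comparison, and their mean log2 level over the 4 arrays of a group was 12.12 in intact-mated, 12.05 in vasectomized-mated and 12.07 in control females. With no fold threshold 2 of the 8 passed in intact-mated females against controls, Cldn7 higher (0.545) and Krt7 lower (-0.354). In each other comparison 1 of the 8 passed. Of the 9 macrophage markers Cd68 then passed in intact-mated (0.45) and vasectomized-mated females (0.46) against controls, where 5 of the 9 were positive.

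The control arrays themselves differed. The mean log2 level of 9 stromal markers was 10.36 and 10.33 on controls 1 and 2, and 9.55 and 9.51 on controls 3 and 4. It was 8.89 to 9.65 on intact arrays and 9.33 to 9.94 on vasectomized arrays. In intact-mated females against controls 2 of the 9 markers, Lum and Col1a1, were called lower. In that comparison 0 of the 9 had a positive log2 fold-change, and their median was -0.624. Ptgs2 was higher on controls 1 and 2 than on controls 3 and 4. Its log2 fold-change in intact-mated females was 2.00 against controls 1 and 2 alone and 3.37 against controls 3 and 4 alone, and in vasectomized-mated females 1.10 and 2.47. All 4 of these differences were called, so the size of the rise moved with the control arrays chosen while its direction did not. The part of the stroma in these values was not tested.

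Ptges encodes microsomal prostaglandin E synthase, the inducible enzyme that often works with the inducible cyclooxygenase to make prostaglandin E. Its log2 level was 7.85, 8.33, 7.84 and 8.53 on the intact arrays, 7.82, 7.56, 7.67 and 7.46 on the vasectomized arrays and 7.80, 7.88, 7.34 and 7.19 on the control arrays. The intact arrays lay above the vasectomized arrays, of which array 1 came close to intact arrays 1 and 3, and they overlapped the control arrays. The log2 fold-change in intact-mated females against controls was 0.58 ± 0.185 (SE, n = 4 arrays a group), a fold-change of 1.498 that falls just under the threshold (adjusted p = 0.068, limma). The value moved with the control arrays: it was 0.29 and not called against controls 1 and 2 alone (adjusted p = 0.362, limma), and 0.87 and called against controls 3 and 4 alone (adjusted p = 0.0158, limma). With single arrays left out it lay between 0.45 and 0.69 (adjusted p = 0.0383 to 0.183, limma) and was called only without control 2. Vasectomized-mated females differed from controls by 0.07 (95% interval -0.33 to 0.47), and intact-mated from vasectomized-mated females by 0.51 (95% interval 0.11 to 0.91, adjusted p = 0.177, limma).

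Ptgis encodes prostacyclin synthase, the enzyme behind the vasodilator prostacyclin. Its log2 level ranged over 7.81 to 8.37 on intact arrays, 8.02 to 8.26 on vasectomized arrays and 8.01 to 8.19 on control arrays. The groups overlapped throughout, and the log2 differences were 0.03 (95% interval -0.20 to 0.27) for intact-mated females against controls, 0.05 (-0.19 to 0.29) for vasectomized-mated females against controls and -0.02 (-0.25 to 0.22) for intact-mated against vasectomized-mated females. These intervals leave out a change of 1.5-fold, which is 0.585 on the log2 scale, in each comparison.

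Slco2a1 encodes the prostaglandin transporter, which carries prostaglandins from outside the cell to the inactivating enzyme within. Its log2 level was 9.76, 9.73, 9.83 and 9.63 on the intact arrays, 8.94, 8.50, 8.84 and 8.79 on the vasectomized arrays, and 8.87, 9.55, 8.43 and 8.51 on the control arrays. The 4 intact arrays lay above all other arrays, with control 2 as the nearest, and the vasectomized and control arrays overlapped. Slco2a1 rose 1.86-fold in intact-mated females against controls, a log2 fold-change of 0.90 ± 0.198 (SE, n = 4 arrays a group, 95% interval 0.47 to 1.33, adjusted p = 0.0128, limma). It was 1.96-fold higher in intact-mated than in vasectomized-mated females, a log2 difference of 0.97 ± 0.198 (95% interval 0.54 to 1.40, adjusted p = 0.0278, limma). Vasectomized-mated females differed from controls by -0.08 (95% interval -0.51 to 0.35, adjusted p = 0.883, limma).

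Both calls of Slco2a1 rested on the arrays in the fit. Against vasectomized-mated females the call was lost when intact array 2, 3 or 4 or any 1 of vasectomized arrays 1, 2, 3 and 4 was left out (log2 difference 0.88 to 1.03, adjusted p = 0.0526 to 0.0759, limma), although its size hardly moved. The 4 called neutrophil markers given above were also higher in intact-mated females in both comparisons, and the part of neutrophils in Slco2a1 was not tested. Against controls 1 and 2 alone the difference in intact-mated females was 0.52 and not called (adjusted p = 0.0801, limma), and against controls 3 and 4 alone it was 1.27 (adjusted p = 0.000102, limma). The transporter is known in endothelium, and the mean log2 level of 7 markers of blood endothelium was 7.53 to 8.06 on intact arrays, 7.65 to 8.27 on vasectomized arrays and 7.36 to 8.36 on control arrays. One of the 7, Flt1, was called higher in intact-mated females against controls and 0 were called between the mated groups. The other 6 had negative log2 fold-changes in that first comparison, and the median of the 7 was -0.239. Between the mated groups Flt1 was 1.49-fold higher in intact-mated females, just under the threshold (adjusted p = 0.0121, limma). All intact arrays of Flt1 lay above all vasectomized arrays, and the other 6 markers were again negative. Controls 1 and 2, where Slco2a1 was higher than on controls 3 and 4, also had the higher endothelial markers (8.36 and 8.32, against 7.44 and 7.36 on controls 3 and 4), and the part of the endothelium in these values was not tested.

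Hpgd encodes 15-hydroxyprostaglandin dehydrogenase, which inactivates prostaglandins once they are inside the cell. The log2 level was 8.31, 8.34, 8.87 and 8.40 on the intact arrays, 9.04, 8.58, 9.29 and 9.01 on the vasectomized arrays and 9.14, 8.87, 8.76 and 8.61 on the control arrays. Intact arrays 1, 2 and 4 lay below every array of the other groups, and intact array 3 lay among them. The log2 difference was -0.36 (95% interval -0.72 to -0.00077, adjusted p = 0.216, limma) in intact-mated females against controls and -0.50 (95% interval -0.86 to -0.14, adjusted p = 0.145, limma) in intact-mated against vasectomized-mated females. It was 0.14 in vasectomized-mated females against controls (95% interval -0.23 to 0.50). The transporter and the enzyme, which act one after the other in clearance, therefore had differences of opposite sign in intact-mated females, of which only that of the transporter was called.

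**Figure D2:**
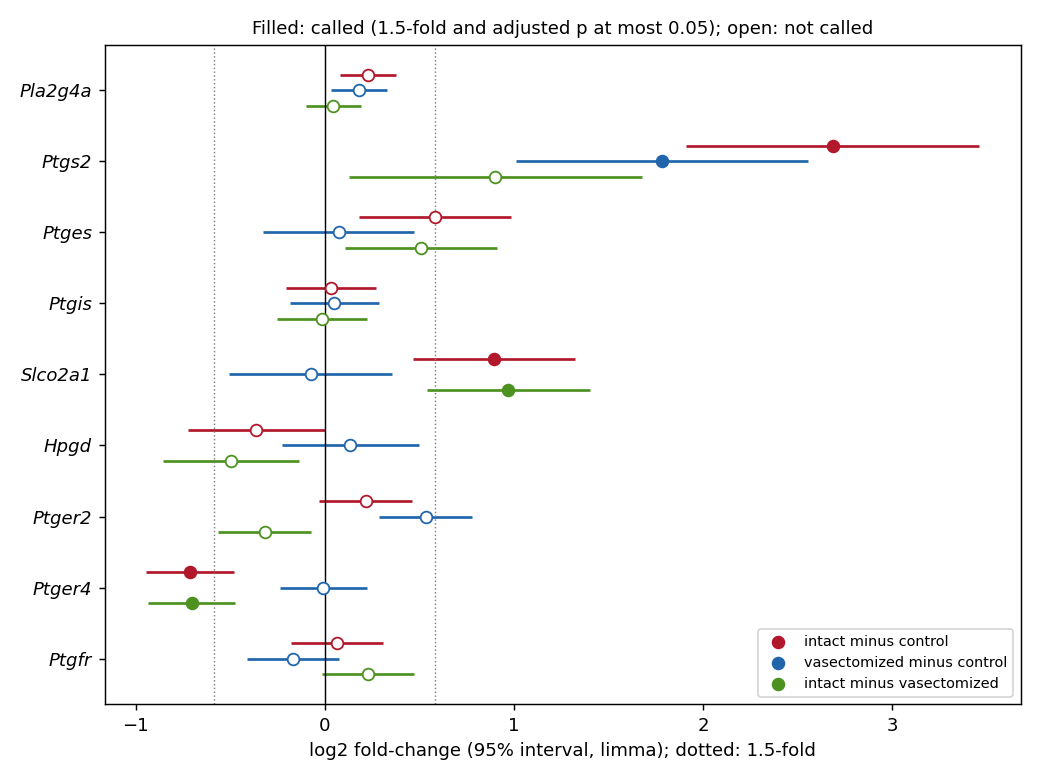
Log2 fold-change (x axis) of the 9 prostaglandin genes (y axis) in intact-mated against control, vasectomized-mated against control and intact-mated against vasectomized-mated females, with 95% intervals from limma and dotted lines at 1.5-fold. Filled points were called; Ptgs2 is farthest to the right in both comparisons with controls, and Ptger4 lies left of the lower line in both comparisons of intact-mated females.

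Among the receptors, Ptger2 and Ptger4 encode the pair of prostaglandin E receptors that raise cAMP, and Ptgfr encodes the receptor of prostaglandin F, known for its part in luteolysis and labour. Ptger4 was the one gene of the 9 that was called lower. Its log2 level was 10.01, 9.67, 9.67 and 9.87 on the intact arrays, 10.37, 10.55, 10.65 and 10.46 on the vasectomized arrays and 10.54, 10.29, 10.73 and 10.52 on the control arrays. The 4 intact arrays lay below all others, while vasectomized and control arrays overlapped and had nearly the same mean (10.51 and 10.52). Ptger4 fell 1.64-fold in intact-mated females against controls, a log2 fold-change of -0.71 ± 0.106 (SE, n = 4 arrays a group, 95% interval -0.94 to -0.48, adjusted p = 0.00101, limma). It was 1.63-fold lower in intact-mated than in vasectomized-mated females, a log2 difference of -0.70 ± 0.106 (95% interval -0.93 to -0.47, adjusted p = 0.00914, limma). In vasectomized-mated females against controls the difference was -0.01 (95% interval -0.24 to 0.22, adjusted p = 0.978, limma), an interval that leaves out a change of 1.5-fold. Both calls of Ptger4 were kept with any 1 array left out and without controls 1 and 2 or controls 3 and 4. Beside these calls, 2 of 9 stromal markers were called lower in intact-mated females against controls and 0 of 9 in intact-mated against vasectomized-mated females. Of these 9, 0 had a positive log2 fold-change in any of the 3 comparisons. Their median was -0.624 in intact-mated and -0.348 in vasectomized-mated females against controls, and -0.274 between the mated groups. In both comparisons of intact-mated females 4 of 13 neutrophil markers were called higher. The part of stroma and of neutrophils in Ptger4 was not tested.

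Ptger2 had another order of groups. On the intact arrays its log2 level was 7.15, 7.10, 7.05 and 6.83, on the vasectomized arrays 7.31, 7.12, 7.61 and 7.35, and on the control arrays 6.82, 6.77, 7.03 and 6.64. The vasectomized arrays lay above all control arrays, and the intact arrays overlapped both. The log2 fold-change was 0.53 ± 0.113 (SE, n = 4 arrays a group, adjusted p = 0.0211, limma) in vasectomized-mated females against controls, a fold-change of 1.45 that was under the threshold. It was past both thresholds without vasectomized array 2 (0.61, adjusted p = 0.0179, limma) or without control 3 (0.61, adjusted p = 0.0166, limma). The adjusted p was above 0.05 without vasectomized array 3 (0.45, adjusted p = 0.059, limma), vasectomized array 4 (0.53, adjusted p = 0.0577, limma) or control 4 (0.48, adjusted p = 0.0639, limma), and against controls 3 and 4 alone (0.51, adjusted p = 0.0687, limma). Intact-mated females differed from controls by 0.22 (95% interval -0.03 to 0.46) and from vasectomized-mated females by -0.32 (95% interval -0.56 to -0.07, adjusted p = 0.172, limma).

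Ptgfr ranged over 5.72 to 6.17 on intact arrays, 5.62 to 5.97 on vasectomized arrays and 5.79 to 6.12 on control arrays. The groups overlapped, and the log2 differences were 0.06 (95% interval -0.18 to 0.31) for intact-mated females against controls, -0.17 (-0.41 to 0.08) for vasectomized-mated females against controls and 0.23 (-0.01 to 0.47) for intact-mated against vasectomized-mated females. The mean of Ptger2 and of Ptgfr over the 12 arrays was below the median of all clusters, so both are dim on these arrays.

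The called genes were then set beside all other genes with a single symbol, as the root mean square difference between log2 levels centred over the 12 arrays, where a smaller value is a closer pattern. Nearest to Ptgs2 were Tnfaip3 (0.275), Cfap69 (0.278) and Slc5a8 (0.287), against an SD of Ptgs2 itself of 1.28. Nearest to Slco2a1 were Kcne3 (0.229), Gpc4 (0.236) and Tgfb1 (0.239), against an SD of 0.542. Nearest to Ptger4 were Pxylp1 (0.114), Dach1 (0.132) and Fam20c (0.139), against an SD of 0.377. Tnfaip3, an inhibitor of NF-κB signalling that is itself an NF-κB target, had log2 means of 10.57, 9.80 and 7.88 on intact, vasectomized and control arrays, in the same order as Ptgs2. Tgfb1, which encodes a transforming growth factor, had means of 9.05, 8.41 and 8.25. Pxylp1 had means of 7.62, 8.32 and 8.30 on intact, vasectomized and control arrays, lowest in the intact group as Ptger4 was. All of these neighbours were chosen for closeness on these same arrays, so a shared order of groups follows from the choice.

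The rest of the arachidonic acid pathway was read from 60 further genes, of which 56 were measured. In intact-mated females against controls 3 of 56 were called higher (Pla2g2e, Pla2g12a and Ltc4s), in vasectomized-mated females against controls 1 (Alox12e) and in intact-mated against vasectomized-mated females 1 (Ltc4s). None was called lower in any comparison, although 17, 12 and 13 of the 56 had an unadjusted p under 0.05 in these comparisons in the same order. These are 30.4%, 21.4% and 23.2% of the 56, beside 23.0%, 18.9% and 17.2% of all clusters. Of the 21789 clusters with 1 symbol, from which the 56 were read, the shares were 27.5%, 19.7% and 17.6%. Of these clusters 590, 253 and 129 were called higher and 453, 138 and 58 lower. The shares of all clusters called in either direction, given above, were 3.49%, 1.43% and 0.796%. The median log2 fold-change of the 56 was -0.0336, -0.0066 and 0.011.

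**Figure D3:**
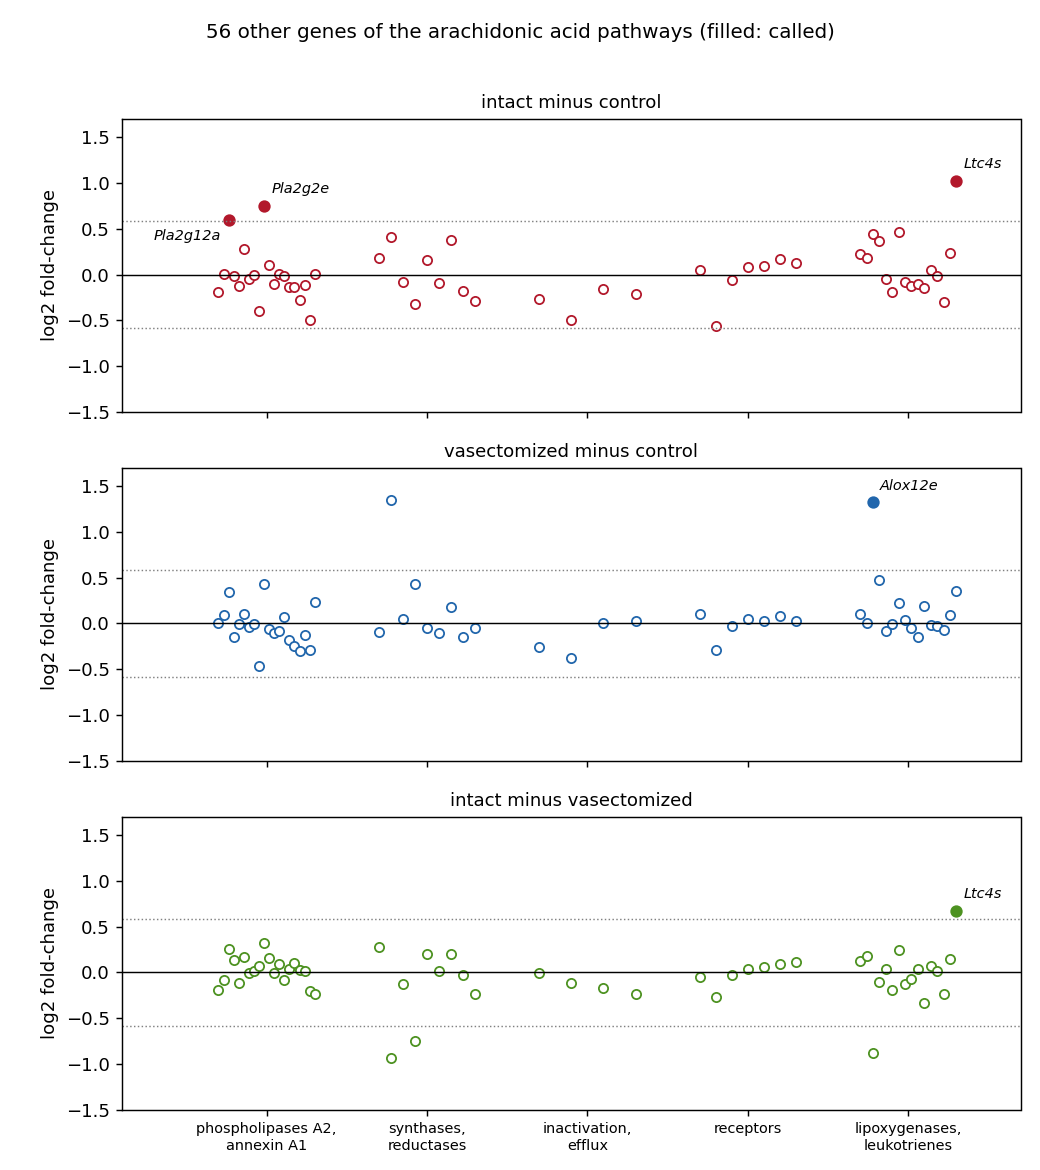
Log2 fold-change (y axis) of the 56 other genes of the arachidonic acid pathways, grouped by role on the x axis, in the 3 comparisons from top to bottom; dotted lines mark 1.5-fold. Filled and named points were called, and all of them lie above the upper line.

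Of 20 measured further phospholipases A2 and annexin A1, 2 were called, Pla2g2e and Pla2g12a. Both are secreted enzymes, as are others of the list that were not called. Among those, Pla2g2d was lower on all mated arrays than on all control arrays. Its log2 fold-change was -0.39 in intact-mated females (adjusted p = 0.0371, limma) and -0.46 in vasectomized-mated females (adjusted p = 0.033, limma), both under 1.5-fold. Pla2g2e had log2 levels of 12.13, 12.22, 12.23 and 12.21 on intact arrays, 11.87, 11.99, 11.90 and 11.77 on vasectomized arrays and 11.56, 11.37, 11.55 and 11.30 on control arrays. Its 3 groups did not overlap and stood in the order intact, vasectomized, control, as those of Ptgs2 did. Pla2g2e rose 1.68-fold in intact-mated females against controls (log2 fold-change 0.75 ± 0.0745, SE, n = 4 arrays a group, adjusted p = 5.42e-05, limma). The log2 fold-change was 0.43 in vasectomized-mated females against controls (adjusted p = 0.00745, limma) and 0.31 in intact-mated against vasectomized-mated females (adjusted p = 0.049, limma), both under 1.5-fold.

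Pla2g12a followed the same order, with log2 levels of 8.84, 8.88, 8.78 and 8.86 on intact arrays, 8.55, 8.68, 8.59 and 8.52 on vasectomized arrays and 8.14, 8.09, 8.51 and 8.22 on control arrays. The log2 fold-change in intact-mated females against controls was 0.60 ± 0.085 (SE, n = 4 arrays a group, adjusted p = 0.000759, limma), a fold-change of 1.51 that barely met the threshold. It was under the threshold without intact array 2 (0.58), control 1 (0.56) or control 2 (0.55), where the adjusted p stayed at or under 0.00354 in limma, and against controls 3 and 4 alone (0.47, adjusted p = 0.00727, limma). The difference was 0.34 in vasectomized-mated females against controls and 0.25 between intact-mated and vasectomized-mated females, neither of which was called.

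In the lipoxygenase and leukotriene branch, which draws on the same arachidonic acid, 16 genes were measured. Ltc4s encodes leukotriene C4 synthase, which makes the first of the cysteinyl leukotrienes from leukotriene A4. It had log2 levels of 8.06, 8.13, 7.90 and 8.20 on intact arrays, 7.27, 7.47, 7.43 and 7.44 on vasectomized arrays and 6.98, 6.98, 7.22 and 7.02 on control arrays. The groups did not overlap. Ltc4s rose 2.03-fold in intact-mated females against controls (log2 fold-change 1.02 ± 0.0822, SE, n = 4 arrays a group, adjusted p = 1.18e-05, limma) and was 1.59-fold higher in intact-mated than in vasectomized-mated females (log2 difference 0.67 ± 0.0822, adjusted p = 0.00494, limma). The log2 fold-change of 0.35 in vasectomized-mated females against controls was under 1.5-fold (adjusted p = 0.0328, limma). Mast cells are known to express Ltc4s, and the mean log2 level of 7 mast cell markers was 6.46 to 6.89 on intact arrays, 6.44 to 6.70 on vasectomized arrays and 6.34 to 6.63 on control arrays, which overlapped; their part in Ltc4s was not tested.

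Alox12e, the epidermal-type lipoxygenase, had log2 levels of 9.28, 9.21, 9.47 and 8.95 on intact arrays, 9.82, 9.75, 10.50 and 10.36 on vasectomized arrays and 9.12, 9.42, 8.77 and 7.83 on control arrays. The vasectomized arrays lay above all others, and intact and control arrays overlapped. Alox12e rose 2.50-fold in vasectomized-mated females against controls (log2 fold-change 1.32 ± 0.288, SE, n = 4 arrays a group, adjusted p = 0.0247, limma). The call was lost without vasectomized array 3 (1.19, adjusted p = 0.0792, limma) or vasectomized array 4 (1.24, adjusted p = 0.0752, limma), and against controls 1 and 2 alone (0.84, adjusted p = 0.0671, limma). The difference between intact-mated and vasectomized-mated females was -0.88 (adjusted p = 0.137, limma). With single arrays left out the adjusted p of this difference was 0.0386 to 0.314 in limma, and it was called only without control 4.

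**Figure D4:**
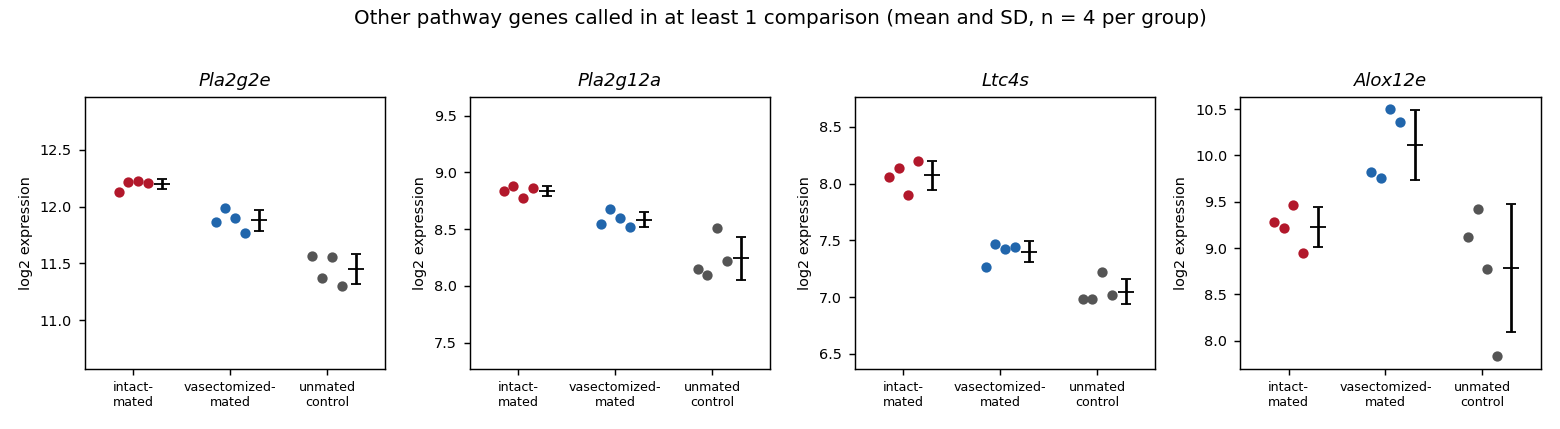
Log2 expression (y axis) of the 4 other pathway genes called in at least 1 comparison, by array, with intact-mated, vasectomized-mated and control females from left to right on the x axis. Points are arrays, and bars are the mean and SD of 4. Pla2g2e, Pla2g12a and Ltc4s step down across the 3 groups, and Alox12e is highest on the vasectomized arrays.

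No gene was called among the 9 measured further prostanoid synthases and reductases, the 4 further genes of inactivation and efflux, or the 7 further prostanoid receptors. In the first of these lists the widest difference was that of Akr1c18, whose product reduces prostaglandins and also breaks down progesterone. The log2 level was 8.62, 7.33, 7.65 and 7.81 on intact arrays, 8.63, 8.69, 8.47 and 9.37 on vasectomized arrays and 6.57, 6.78, 8.47 and 7.96 on control arrays. Controls 3 and 4 stood above controls 1 and 2, and the vasectomized group overlapped the controls only at control 3. The log2 fold-change in vasectomized-mated females against controls was 1.34 ± 0.401 (SE, n = 4 arrays a group, adjusted p = 0.0895, limma), and it was called when control 3 alone was left out (1.68, adjusted p = 0.0294, limma). It was 2.11 and called against controls 1 and 2 alone (adjusted p = 0.00882, limma), and 0.57 and not called against controls 3 and 4 alone (adjusted p = 0.327, limma), so its size moved with the control pair.

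Ptgr1, a reductase that inactivates prostaglandins and leukotriene B4, had log2 levels of 6.87, 6.87, 6.83 and 6.82 on intact arrays, 6.92, 6.87, 6.92 and 7.15 on vasectomized arrays and 7.14, 7.30, 7.34 and 7.61 on control arrays. The intact arrays lay below all control arrays. The log2 fold-change in intact-mated females against controls was -0.50 ± 0.0942 (SE, n = 4 arrays a group, adjusted p = 0.00508, limma), which was under 1.5-fold. In vasectomized-mated females against controls it was -0.38 (adjusted p = 0.0434, limma), also under 1.5-fold, and those groups overlapped. All 4 genes of this list had a negative log2 fold-change in intact-mated females against controls (median -0.238), and none was called.

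Ptgdr2, a receptor of prostaglandin D, had log2 levels of 7.35, 7.50, 7.46 and 7.67 on intact arrays, 8.21, 7.59, 7.61 and 7.65 on vasectomized arrays and 8.37, 8.27, 7.81 and 7.78 on control arrays. The intact arrays lay below all control arrays. The log2 fold-change in intact-mated females against controls was -0.56 ± 0.163 (SE, n = 4 arrays a group, adjusted p = 0.0477, limma), a fall of 1.48-fold that was under the threshold. The value moved with the control arrays: it was -0.83 and called against controls 1 and 2 alone (adjusted p = 0.0113, limma), and -0.30 and not called against controls 3 and 4 alone (adjusted p = 0.313, limma). With single arrays left out it lay between -0.46 without control 1 (adjusted p = 0.124, limma) and -0.66 without control 4 (adjusted p = 0.0353, limma), and it was called only without control 3 or control 4. The other 6 receptors of the list had log2 fold-changes between -0.06 and 0.17 in that comparison.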

How the data were processed

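Expression in endometrium was measured on 12 arrays (Affymetrix Mouse Gene 1.0 ST), which were grouped by their labels. The authors deposited log2 values for 35556 transcript clusters, made with RMA background correction, an adjustment for probe GC content and probe summarization in Partek Genomics Suite, which the submitters' processing notes name. Their versions were not stated in these sources. Array medians lay between 7.255 and 7.315, the lowest correlation between arrays of 1 group was 0.983, and values were used without further normalization. The number of arrays limits the precision, and p-values measure the spread between pools. The per-array columns not used numbered 0.

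In the annotation used here 21789 clusters carried 1 symbol, 1621 several and 12146 none. A gene was read from its single-symbol cluster with the highest mean. A linear model of the 3 group means was fitted to every cluster over the 12 arrays in limma 3.58.1 under R 4.3.3 (9 residual degrees of freedom and a prior of 3.258), with Benjamini-Hochberg correction over all clusters, in place of the ANOVA of the methods. The thresholds for a call were 1.5-fold and an adjusted p of 0.05. The code was tested on simulated data.

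The text names the prostaglandin genes and the called genes of each pathway list or otherwise its gene with the widest log2 fold-change. It also names the 3 genes with the most similar pattern to each called prostaglandin gene and, of marker lists, called genes. Beyond this it names Pla2g2d and the markers Ly6g, Mmp8, Itgam, Cldn7, Krt7 and Cd68, none of them called in any comparison. Markers and Pla2g2d were named after their values were seen. The genes and lists were chosen with earlier results of these data known. Further lists marked smooth muscle (0 of 7 called in any comparison), platelets (1 of 5 higher in intact-mated females against controls, Ppbp), T and NK cells (0 of 7) and sperm and accessory glands (0 of 11). Alternatives were 2 other normalizations, other or no moderation of variances, weights for arrays, the replicate number as a block, fits limited to the 2 groups compared, removal of dim clusters, 2 other corrections, 2 other thresholds, another row rule, and leaving out each array or controls 1 and 2 or 3 and 4. Other assays of the study, such as qPCR and flow cytometry, were not used here.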

Additional observations from a re-analysis of the deposited data

Results flagged for a closer look

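Among 39 groups of 4 arrays (13 named genes in 3 groups), 2 held an array far from the others, and chance flags about 1 in 20 such groups. Hpgd on intact array 3 was at 8.872, while the other intact arrays lay between 8.314 and 8.403. Ltc4s on control array 3 was at 7.218, while the other controls lay between 6.979 and 7.018.

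The intact-mated and vasectomized-mated groups differed in 3 genes by the direct test of that difference in limma. Slco2a1 differed by 0.9703 on the log2 scale (adjusted p = 0.0278), Ptger4 by -0.7043 (adjusted p = 0.00914) and Ltc4s by 0.6713 (adjusted p = 0.00494). All 4 intact arrays lay beyond all 4 vasectomized arrays for each of them.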

How the results depend on the processing

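Over 27 alternatives, 699 of 723 values of the prostaglandin genes kept their side of the thresholds, 17 lost a call and 7 gained one. No call changed direction (0 values), and 19 of the 699, none of them called, changed sign. Ptgs2 in intact-mated females against controls was called under all 27. The count of called prostaglandin genes in that comparison was 3, and 1 at 2-fold, with a range of 3 to 4 when single arrays were left out. In vasectomized-mated females against controls the count was 1, and 0 without variance moderation (Ptgs2, adjusted p = 0.0549), 0 in the fit of only these groups (adjusted p = 0.0619), 2 with no fold threshold, which added Ptger2, and 0 to 2 with single arrays left out. In intact-mated against vasectomized-mated females it was 2, and 1 without variance moderation (Slco2a1, adjusted p = 0.0729), 0 at 2-fold, and 1 to 2 with single arrays left out. Of the other pathway genes, the 3 called in intact-mated females against controls became 1 at 2-fold, 9 with no fold threshold, 5 without controls 3 and 4 and 2 to 4 with single arrays left out. The 1 called in vasectomized-mated females against controls became 0 without variance moderation, 0 in the fit of only these groups, 6 with no fold threshold, 3 without controls 1 and 2 and 0 to 2 with single arrays left out. The 1 called in intact-mated against vasectomized-mated females became 3 in the fit of only these groups, 0 at 2-fold, 2 with no fold threshold, 2 without controls 1 and 2, 2 without controls 3 and 4 and 1 to 2 with single arrays left out. Beyond the thresholds and arrays changed, the cause was not tested. Removal of dim clusters left out Ptger2 and Ptgfr.

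The labels number the arrays 1 to 4 in each group, but same-numbered arrays did not deviate together (correlations of deviations -0.255 to 0.205), so the numbers were not taken to pair arrays. With the replicate block the count between the mated groups was 1 in place of 2, as Slco2a1 was not called (adjusted p = 0.0638, limma).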
